A study of Mus musculus with 6 samples.

Results

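The immediate early genes examined here are Fos, Fosb, Jun, Junb, Egr1, Egr2, Egr3, Atf3, Nr4a1 and Ier2, 10 of the 19752 genes that had a probe set of their own on the arrays. A gene was represented by the probe set that names it alone and has the highest mean over the 6 arrays, and each of the 10 had 1 such probe set. RNA from the aorta of 20-week-old mice of C57BL/6 background was measured on Affymetrix arrays, 1 array per sample, in a DKO group with the genotype apoe-/- adora1-/- (n = 3) and an ApoE-KO group with the genotype apoe-/- (n = 3). By these labels both groups lack Apoe, the gene of apolipoprotein E, whose loss makes mice prone to atherosclerosis, and they differ in Adora1, the gene of the adenosine A1 receptor. There was no wild-type and no Adora1-only sample among the 6. The series title and design text call the comparison mice ADORA1 knockouts, whereas the title, source and genotype of each such sample name apoe. The groups here are those of the sample labels. Adora1 itself is not analysed here, so which naming is right was not checked on it. The question set by the design is how aortic expression differs between double-knockout and single-knockout mice.

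Immediate early genes are transcribed within minutes of a stimulus, without new protein synthesis, and most encode transcription factors that then switch on a later wave of genes. FOS and JUN proteins are leucine-zipper factors that pair as the dimer AP-1, EGR proteins are zinc-finger factors, and NR4A1 is an orphan nuclear receptor. Their promoters typically respond to serum response factor at a CArG box, and to CREB, which is driven by cyclic AMP and calcium, at the CRE. The adenosine A1 receptor couples to inhibitory G proteins and lowers cyclic AMP. In arteries these genes are known to respond to stretch, shear, injury and growth factors, and also to the handling of tissue.

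Upstream sequences were found in the RefSeq promoter table of build GRCm38.p6 for 7 of the 10 genes. Of these, 5 are shown, each with 250 bases up to the base before the annotated start, because they belong to genes whose difference had the same direction in every pair of arrays (Egr2, Nr4a1, Fosb, Junb) and, for contrast, to Fos, whose pairs disagreed. Capitals mark the CArG box, the CRE core TGACG and the EGR site GCGNGGGCG, each searched on both strands. Egr2 has 5 annotated windows, and the one printed is the first that holds both a CArG box and a CRE core.
Egr2, chr10:67537619-67537868, plus strand: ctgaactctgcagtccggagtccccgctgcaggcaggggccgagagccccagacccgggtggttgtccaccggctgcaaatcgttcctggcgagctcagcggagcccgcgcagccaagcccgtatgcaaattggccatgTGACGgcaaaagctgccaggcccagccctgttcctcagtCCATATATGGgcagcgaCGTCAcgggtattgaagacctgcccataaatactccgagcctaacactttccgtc
Nr4a1, chr15:101266596-101266845, plus strand: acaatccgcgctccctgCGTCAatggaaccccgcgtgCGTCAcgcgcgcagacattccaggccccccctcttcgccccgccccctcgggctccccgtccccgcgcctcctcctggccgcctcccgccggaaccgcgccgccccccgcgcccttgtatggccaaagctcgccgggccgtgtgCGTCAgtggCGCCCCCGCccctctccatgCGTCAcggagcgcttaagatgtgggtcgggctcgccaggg
Fosb, chr7:19310046-19310295, minus strand: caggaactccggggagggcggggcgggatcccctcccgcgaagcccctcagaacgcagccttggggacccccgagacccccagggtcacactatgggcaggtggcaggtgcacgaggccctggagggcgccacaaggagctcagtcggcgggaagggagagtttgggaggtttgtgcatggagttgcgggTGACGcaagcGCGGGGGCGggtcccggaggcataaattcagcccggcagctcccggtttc
Junb, chr8:84978749-84978998, minus strand: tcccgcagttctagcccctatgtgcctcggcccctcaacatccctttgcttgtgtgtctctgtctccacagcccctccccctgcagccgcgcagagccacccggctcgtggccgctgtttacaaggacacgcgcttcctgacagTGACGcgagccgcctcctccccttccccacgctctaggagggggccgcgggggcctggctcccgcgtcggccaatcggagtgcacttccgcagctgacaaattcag
Fos, chr12:85473640-85473889, plus strand: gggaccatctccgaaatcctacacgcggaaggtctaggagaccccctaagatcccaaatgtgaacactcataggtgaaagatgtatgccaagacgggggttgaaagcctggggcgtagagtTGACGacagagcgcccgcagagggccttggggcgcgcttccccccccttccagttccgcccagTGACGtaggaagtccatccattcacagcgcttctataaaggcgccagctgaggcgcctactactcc

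The CRE core was present upstream of 6 of the 7 genes (all but Jun), and in 8 of their 11 windows, since Egr2 has several that overlap. Of all 32851 windows of the same length 17.8% held it. Nr4a1 had 4 matches, Egr2 (in the window shown) and Fos had 2 each, and Fosb, Junb and Atf3 had 1 each. A CArG box, which 1.47% of all windows hold, was found only at Egr2, in 4 of its 5 windows. Sequence beyond the 250 bases was not searched, nor was that of Egr1, Egr3 and Ier2, so CArG boxes elsewhere could have been missed. In the printed window it runs from position -72 to -63 relative to the start, with the CRE cores at -111 to -107 and -55 to -51. The EGR site, held by 4.7% of all windows, was found at Nr4a1 (-60 to -52) and Fosb (-50 to -42), and the AP-1 site TGANTCA, held by 6.75%, at none of the 7. The motifs do not overlap one another in the printed windows. These are matches of letters, not measured binding.

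**Figure D1:**
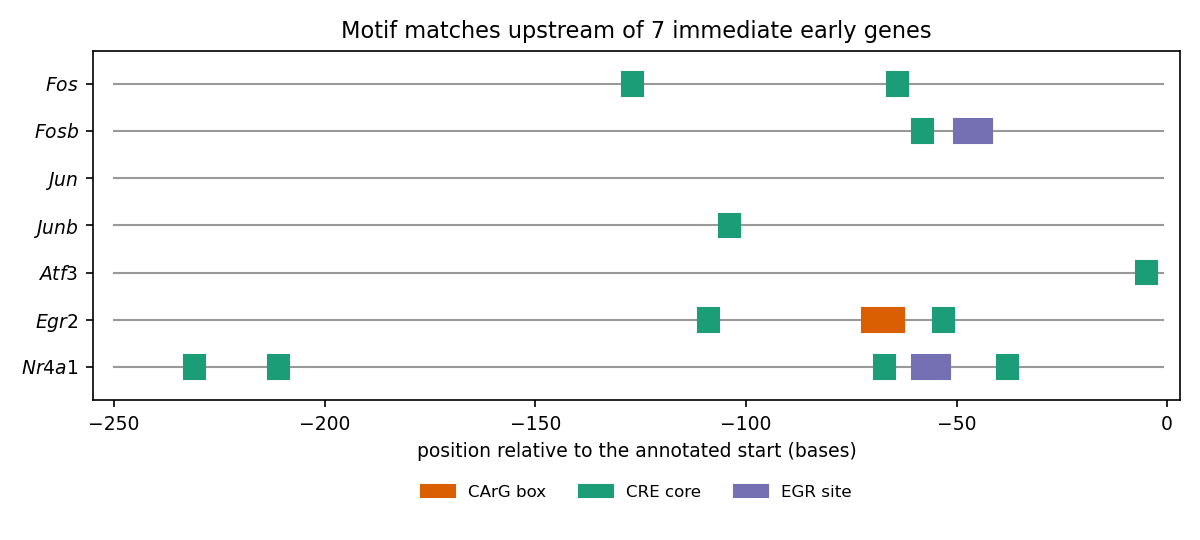
Motif matches in the 250 bases upstream of the annotated start of 7 immediate early genes, plotted by distance from the start in bases; coloured blocks are matches on either strand, and for Egr2 the printed window is drawn. Within these 250 bases the CRE core recurs in 6 genes, and the CArG box is seen at Egr2 alone among the 7.

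The values are log2 intensities, so a difference of 1 is a 2-fold change, and levels of different probe sets are not compared with each other. Array medians lay between 8.01 and 8.02. Acta2, the smooth muscle actin that marks the arterial wall, read 14.01 to 14.04 in DKO and 13.97 to 14.06 in ApoE-KO. Apoe read 9.39, 9.63 and 9.72 in DKO and 9.47, 9.64 and 10.04 in ApoE-KO, which cannot check a knockout that both groups share. The groups overlapped, with a difference of -0.14. By the design text's naming the comparison mice would carry Apoe. Whether this probe set reads the knockout allele was not tested, so its values cannot decide between the namings. Samples with the same replicate number resembled each other, so differences are also given within pairs of the same number and from a fit with the number as a block. Both arrays of replicate 3 stood apart in all 5 lung epithelium markers, whose summed level (as log2) was 13.73 in DKO replicate 3 and 14.40 in ApoE-KO replicate 3, against 9.22 to 9.39 in the other 4 arrays. In DKO replicate 1 all 5 macrophage markers had their lowest value, with a summed level of 12.23, where DKO replicates 2 and 3 had 13.52 and 13.15 and the ApoE-KO arrays 13.00 to 13.11.

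No immediate early gene passed the test. Of the 10, 7 had a higher mean in DKO and 3 a lower one, where 49.3% of all 25254 probe sets were higher and 50.7% lower. The largest increase was that of Nr4a1, 1.65-fold, and the largest decrease that of Junb, 1.35-fold. The median difference over the 10 was 0.23, against -0.0027 over all 19752 genes. Within pairs 1, 2 and 3 the median over the 10 was 0.04, 0.07 and 0.27. The groups did not overlap in 4 genes, being higher in DKO for Egr2 and Fosb and lower for Junb and Ier2, and 12% of all probe sets likewise had separate groups (5.55% higher and 6.47% lower in DKO). With limma, 0 of 10 passed at an adjusted p under 0.05 (smallest 0.839), where 0% of all probe sets passed. At an unadjusted p under 0.05 there were 3 (Egr2, Nr4a1 and Fosb), against 5.62% of all (2.94% higher and 2.68% lower in DKO). With the replicate block 0 of 10 passed (smallest adjusted p = 0.118) where 0.174% of all did (0.095% higher and 0.0792% lower in DKO). The block gave 7 of 10 an unadjusted p under 0.05, all but Fos, Jun and Egr1, against 16.2% of all (10.1% higher and 6.1% lower). In this RNA from whole tissue, fewer cells of a type and less RNA per cell cannot be told apart.

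**Figure D2:**
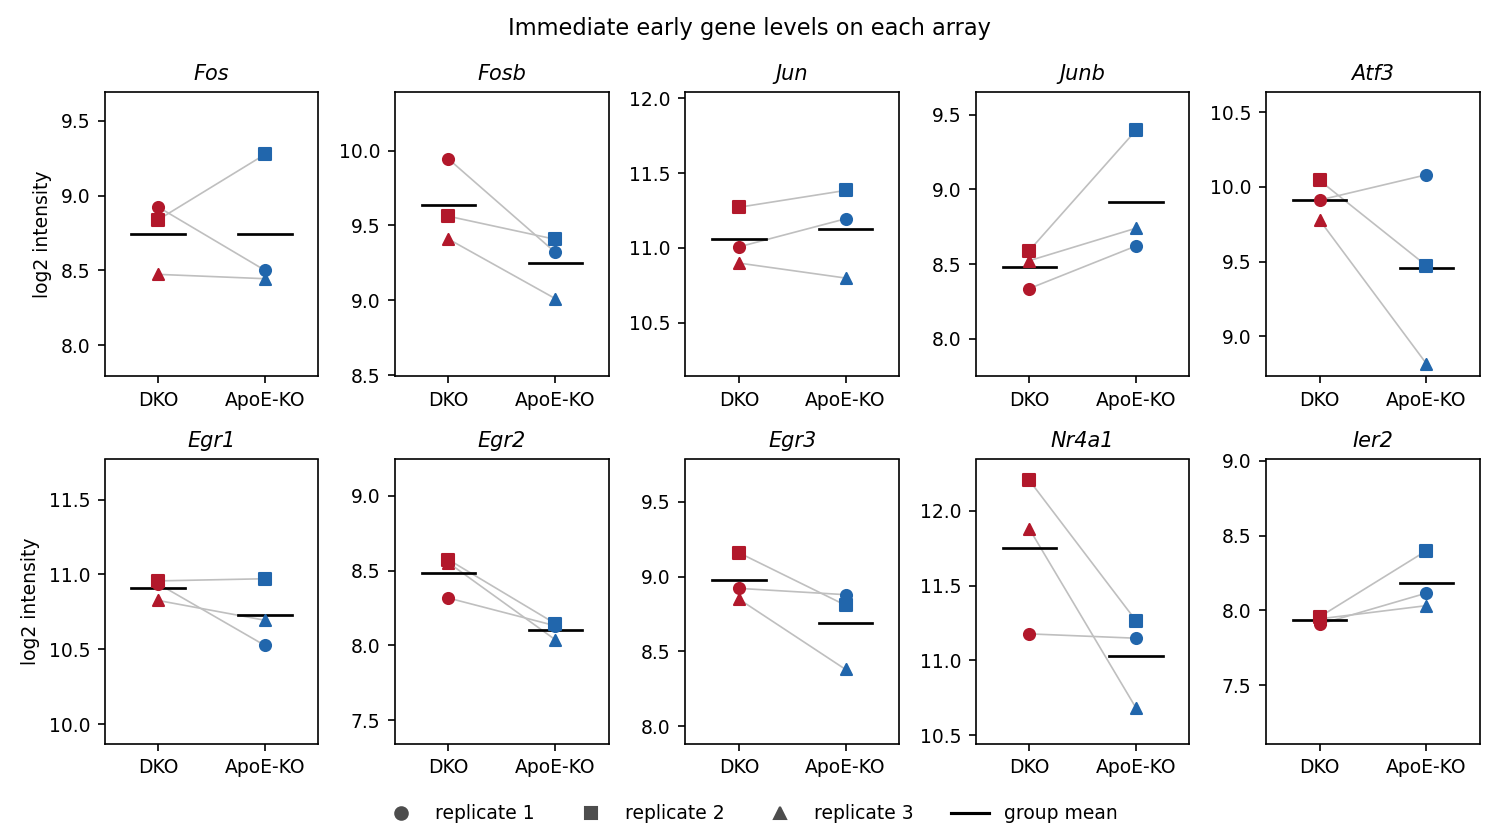
Log2 intensity of the 10 immediate early genes on each array, DKO on the left and ApoE-KO on the right of each panel; marker shapes give the replicate number, grey lines join arrays of the same number, black bars are group means (n = 3), and all panels span the same range of log2 units. Egr2 separates the groups by a gap of 0.17, while the Nr4a1 arrays of replicate 1 lie close together.

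Nr4a1, the nuclear receptor NUR77, which is rapidly induced in macrophages, lymphocytes and vascular cells, read 11.18, 12.20 and 11.88 in DKO replicates 1 to 3 and 11.15, 11.27 and 10.68 in ApoE-KO replicates 1 to 3. DKO replicates 2 and 3 stood above every ApoE-KO array, and DKO replicate 1 stood among them, so the groups overlapped. The mean was 11.75 ± 0.53 in DKO and 11.03 ± 0.31 in ApoE-KO (SD, n = 3 each), a difference of 0.72 (95% interval 0.08 to 1.36; limma, adjusted p = 0.861; with the replicate block 0.173). The pairs stood at 0.03, 0.94 and 1.20. It had the widest range over the arrays of the 10 genes, 1.52. Its upstream window is the one with 4 CRE cores, and a link between the number of matches and the differences was not tested.

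Egr2, also called KROX20, a zinc-finger factor needed for myelination by Schwann cells and also induced in macrophages and lymphocytes, read 8.32, 8.57 and 8.55 in DKO and 8.13, 8.15 and 8.04 in ApoE-KO. Every DKO array was above every ApoE-KO array, and the ApoE-KO arrays lay close together. The means were 8.48 ± 0.14 in DKO and 8.11 ± 0.06 in ApoE-KO (SD, n = 3 each). The difference was 0.38 (95% interval 0.15 to 0.60), with an unadjusted p of 0.00519 that did not pass once adjusted (limma, 0.839; with the replicate block 0.118). Pairs stood at 0.19, 0.43 and 0.51, in the same order as those of Nr4a1. Its within-group SD was the only one of the 10 below the median of all genes.

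Egr3, a zinc-finger factor of the same family that acts in lymphocytes and endothelium, read 8.92, 9.16 and 8.85 in DKO and 8.88, 8.81 and 8.38 in ApoE-KO. The groups overlapped by a narrow margin, since DKO replicate 3 lay below ApoE-KO replicate 1. The difference was 0.29 (95% interval -0.07 to 0.65; limma, adjusted p = 0.862), with pairs at 0.04, 0.35 and 0.47, and it was 0.13 without ApoE-KO replicate 3. Egr1, the family member best known from vascular injury and shear stress, read 10.94, 10.96 and 10.83 in DKO and 10.53, 10.97 and 10.69 in ApoE-KO. The DKO arrays lay inside the ApoE-KO range, below ApoE-KO replicate 2 and above the other two ApoE-KO arrays. Its difference was 0.18 (95% interval -0.11 to 0.47; limma, adjusted p = 0.883), and its pairs, at 0.41, -0.01 and 0.13, were ordered unlike those of Egr2 and Egr3. It was 0.07 without ApoE-KO replicate 1 and 0.30 without ApoE-KO replicate 2.

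**Figure D3:**
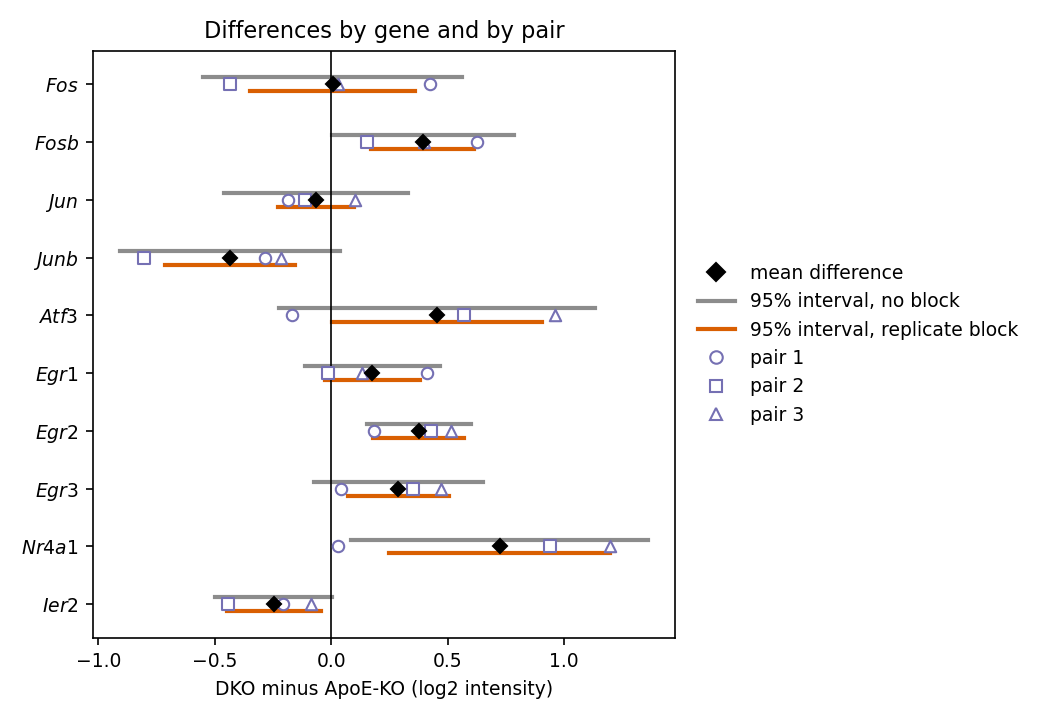
Difference DKO minus ApoE-KO (log2 intensity) of each immediate early gene; diamonds are means of 3 pairs, open symbols the single pairs, and bars the 95% intervals of limma without a block (grey) and with the replicate number as a block (orange). For Nr4a1, Egr2, Egr3, Atf3 and Jun pair 1 is the lowest of the 3.

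Among the FOS genes, Fosb read 9.94, 9.56 and 9.41 in DKO and 9.32, 9.41 and 9.01 in ApoE-KO. Every DKO array was higher, but the nearest ones, DKO replicate 3 and ApoE-KO replicate 2, were only 0.00146 apart. The difference was 0.39 (95% interval 0.00106 to 0.783; limma, adjusted p = 0.862; with the replicate block 0.136), with pairs at 0.62, 0.15 and 0.40, and it was 0.24 without DKO replicate 1. Fos itself, the founding member of AP-1, read 8.92, 8.84 and 8.47 in DKO and 8.50, 9.27 and 8.44 in ApoE-KO. Its highest and lowest values were both in ApoE-KO. The difference was 0.0051 (95% interval -0.55 to 0.56; limma, adjusted p = 0.998), an interval that leaves room for a change of either sign, and the pairs stood at 0.42, -0.44 and 0.03.

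Jun and Junb encode partners of FOS proteins, JUNB being the weaker activator. Junb read 8.34, 8.59 and 8.52 in DKO and 8.62, 9.39 and 8.74 in ApoE-KO. All DKO arrays were lower, by a gap of 0.03, and ApoE-KO replicate 2 stood well above the rest. The difference was -0.44 (95% interval -0.91 to 0.04; limma, adjusted p = 0.862; with the replicate block 0.166), with pairs at -0.28, -0.80 and -0.22, and it was -0.20 without ApoE-KO replicate 2. Jun read 11.01, 11.27 and 10.90 in DKO and 11.19, 11.38 and 10.80 in ApoE-KO. These groups overlapped almost entirely, with a difference of -0.07 (95% interval -0.46 to 0.33; limma, adjusted p = 0.968) and pairs at -0.19, -0.11 and 0.10.

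Atf3, a stress-induced member of the CREB/ATF family that mostly represses transcription, read 9.91, 10.04 and 9.78 in DKO and 10.08, 9.47 and 8.82 in ApoE-KO. The DKO arrays agreed closely (9.91 ± 0.13, SD, n = 3), while ApoE-KO held both the highest and the lowest value (9.46 ± 0.63, SD, n = 3). The difference was 0.45 (95% interval -0.23 to 1.13; limma, adjusted p = 0.868), the pairs stood at -0.17, 0.57 and 0.96, and it was 0.13 without ApoE-KO replicate 3 and 0.76 without ApoE-KO replicate 1. Ier2, a growth-factor-induced nuclear protein, read 7.91, 7.96 and 7.94 in DKO and 8.12, 8.40 and 8.03 in ApoE-KO. All DKO arrays were lower, by a gap of 0.08. The difference was -0.25 (95% interval -0.50 to 0.0049; limma, adjusted p = 0.862), with pairs at -0.21, -0.44 and -0.09, and it was -0.14 without ApoE-KO replicate 2.

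The genes did not share 1 pattern. Junb and Ier2 shared a pattern in which ApoE-KO replicate 2 was highest and the order among DKO arrays was replicate 2, then 3, then 1. Egr2 and Nr4a1 had the same order of arrays except that DKO replicate 1 and ApoE-KO replicate 2 changed places for Nr4a1, the order for Egr2 being DKO replicates 2, 3 and 1 and then ApoE-KO replicates 2, 1 and 3. All 3 pairs pointed the same way in 6 genes, upward in Fosb, Egr2, Egr3 and Nr4a1 and downward in Junb and Ier2, where 40.3% of all probe sets had 3 pairs of 1 sign (21.2% upward and 19.1% downward). The spread between arrays was wide for these genes: the within-group SD had a median of 0.25 over the 10, against 0.12 over all genes, and it ran from the 41.0th percentile of all genes for Egr2 to the 98.5th for Atf3.

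**Figure D4:**
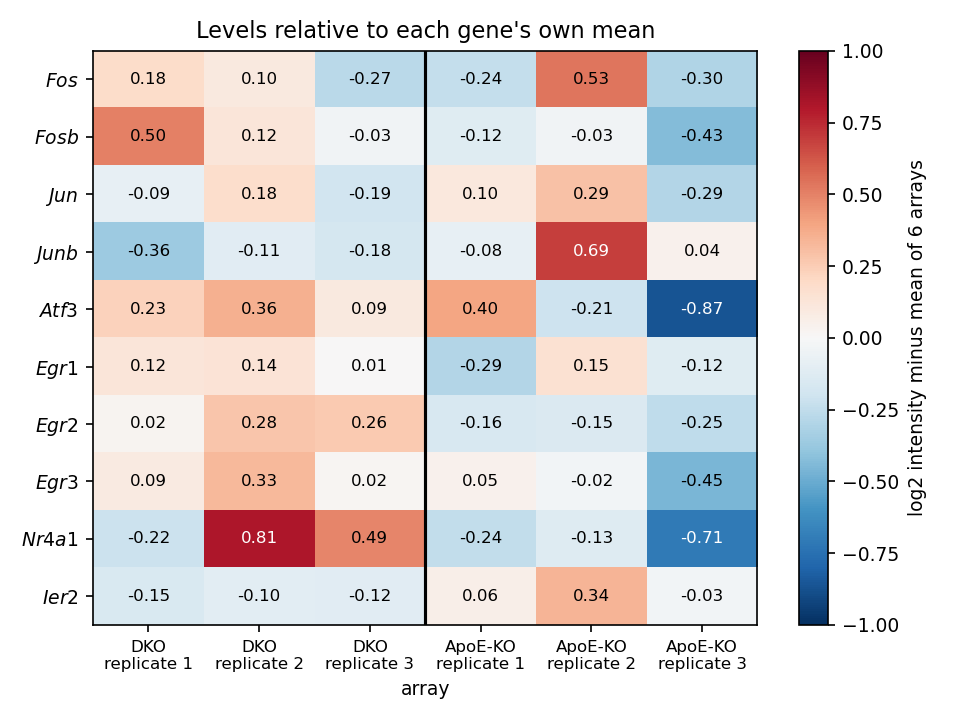
Log2 intensity of each immediate early gene (rows) on each array (columns, DKO left of the black line and ApoE-KO right of it), minus the gene's own mean over the 6 arrays. ApoE-KO replicate 3 is blue in every row except Junb, and ApoE-KO replicate 2 holds the highest value of 5 genes.

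Single arrays carried much of this spread. ApoE-KO replicate 3 gave the lowest value for 7 of the 10 genes (Fos, Fosb, Jun, Egr2, Egr3, Atf3 and Nr4a1), where it was the lowest array for 22.4% of all genes, and 1 gene, Junb, was above its own mean there. ApoE-KO replicate 2 gave the highest value for 5 genes (Fos, Jun, Junb, Egr1 and Ier2), where it was the highest array for 18.7% of all genes. ApoE-KO replicate 3 was also the array with the highest lung epithelium level, and sympathetic nerve markers had their highest summed level there (10.69 against 9.73 to 10.02 elsewhere), as did the skeletal muscle markers (11.05 against 10.04 to 10.78 elsewhere), of which 5 of 5 were highest in both arrays of replicate 3. DKO replicate 3, with a lung epithelium level of 13.73 and a skeletal muscle level of 10.78, gave the lowest value for 0 of the 10 genes. The part of these tissues in the low values was not tested. Without ApoE-KO replicate 3 the median difference of the 10 genes was 0.13, and without both arrays of replicate 3 it was 0.20, with 5 genes whose groups did not overlap, against 32.2% of all probe sets for 2 arrays against 2.

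The Nr4a1, Egr2, Egr3, Atf3 and Jun differences were lowest in pair 1, and those of Fosb, Fos and Egr1 highest there. Without both arrays of replicate 1 and with the replicate block, 4 genes passed: Nr4a1 at 1.07 (adjusted p = 0.00271), Atf3 at 0.76 (0.0163), Egr2 at 0.47 (0.0353) and Egr3 at 0.41 (0.0480; limma). In that fit of 4 arrays, in which the spread rests mostly on what all probe sets share, 1.64% of all probe sets passed (1.09% higher and 0.554% lower in DKO), so 4 of 10 stood beside a larger background. Without both arrays of replicate 2, or of replicate 3, 0 of the 10 passed, where 0% and 0.19% of all probe sets did (0.0792% higher and 0.111% lower in DKO without replicate 3). The summed macrophage level had the order of Nr4a1 and Egr2 among the DKO arrays, highest in replicate 2 and lowest in replicate 1. That order was not particular to macrophages. The summed endothelium, fibroblast, adipocyte and mesothelium levels had it too, as did Junb and Ier2, which were lower in DKO. Of the adipocyte markers 4 of 5 were lowest in DKO replicate 1 and 4 of 5 had a lower mean in DKO (2 passing with the block), with summed levels of 11.25 to 12.13 in DKO against 12.03 to 12.81 in ApoE-KO. The mesothelium markers were higher in DKO in 5 of 5 (2 passing with the block), with summed levels of 10.29 to 10.87 in DKO against 9.53 to 9.97 in ApoE-KO. The part of these cell types in the differences was not tested.

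Relatives and partners of the 10 genes showed 0 of 15 passing with limma in either fit, and 0 and 1 at an unadjusted p under 0.05 without and with the block, against 5.62% and 16.2% of all probe sets. Their median difference was -0.0086. The lowest p was that of Nr4a2, the neighbour of Nr4a1 in the NR4A family, at 9.90, 10.58 and 10.39 in DKO and 9.85, 9.94 and 9.91 in ApoE-KO. As for Nr4a1, DKO replicates 2 and 3 were above every ApoE-KO array and replicate 1 was not. The difference was 0.39 (95% interval -0.0036 to 0.79; adjusted p = 0.862). Nr4a3, the remaining NR4A receptor, was named after its values were seen and had a difference of 0.03, with pairs at -0.38, 0.06 and 0.41. Egr4 (-0.12), Jund, the JUN relative made constitutively in most cells (-0.17), and Ier5l (-0.10) had the next lowest p and overlapped between the groups.

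Of the upstream factors, kinases and cofactors that drive immediate early transcription, 19 of 25 listed were measured. A higher mean in DKO was seen in 15 of the 19, against 49.3% of all probe sets. The median was 0.096, with 0 passing in either fit. The 4 with the lowest p were the kinase gene Rps6ka5, or MSK1, which phosphorylates CREB and histone H3 (0.24), the CREB coactivator gene Crtc1 (0.22), the ribosomal S6 kinase gene Rps6ka3 (0.24) and Map2k1, or MEK1 (0.17). Rps6ka5 read 8.68, 8.81 and 8.72 in DKO and 8.50, 8.47 and 8.51 in ApoE-KO, without overlap (limma, adjusted p = 0.861). The groups did not overlap for Map2k1 either, and they did for Crtc1 and Rps6ka3. In this list 2 of 19 genes had separate groups, against 12% of all probe sets. At an unadjusted p under 0.05 there were 1 of 19 without and 7 of 19 with the block, against 5.62% and 16.2% of all probe sets.

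Feedback regulators, which shut the response down by dephosphorylating kinases or degrading transcripts, were higher in DKO in 10 of 23 and lower in 13, with a median of -0.02, 0 passing in either fit, and 2 without and 8 with the block at an unadjusted p under 0.05 (5.62% and 16.2% of all probe sets). Socs3, an inhibitor of cytokine receptor signalling, read 8.43, 8.43 and 8.34 in DKO and 8.86, 9.18 and 8.54 in ApoE-KO. All DKO arrays were lower, as for Junb and Ier2, and ApoE-KO replicate 2 was again highest (difference -0.46, 95% interval -0.83 to -0.09; limma, adjusted p = 0.861). A second Socs3 probe set had a difference of -0.11. The phosphatase gene Dusp2 (-0.18) was lower without overlap. Btg2, an antiproliferative cofactor (0.21), was higher without overlap, and the RNA-binding protein gene Zfp36l1 (0.24) was higher with overlap. Separate groups were seen in 4 of 23 genes of this list (2 higher and 2 lower in DKO), against 12% of all probe sets.

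Secreted and effector products of the primary response had 10 of 17 genes higher and 7 lower in DKO, with a median of 0.03, 0 passing in either fit, and 3 without and 7 with the block at an unadjusted p under 0.05 (5.62% and 16.2% of all probe sets). The 4 lowest p-values without the block were those of Has2, a hyaluronan synthase (-0.33), the monocyte chemokine gene Ccl2 (-0.34), the matrix protein gene Thbs1 (-0.52) and the neutrophil chemokine gene Cxcl1 (-0.19). Ccl2 read 7.76, 8.16 and 7.97 in DKO and 8.35, 8.26 and 8.29 in ApoE-KO, without overlap. Has2 and Cxcl1 did not overlap either, and 12% of all probe sets had separate groups. The groups overlapped for Thbs1, by the value of DKO replicate 3, and its pairs stood at -1.12, -0.45 and 0.02.

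Other transcription factors of the primary response had 6 of 16 higher and 10 lower in DKO, with a median of -0.06, 0 passing in either fit, and 0 without and 3 with the block at an unadjusted p under 0.05 (5.62% and 16.2% of all probe sets). Those with the lowest p were Cebpd, a leucine-zipper factor of inflammation (-0.33), Nfil3 (0.26), the zinc-finger factor gene Klf6 (0.26) and Myc, the growth regulator (-0.18), and all 4 overlapped between the groups. The list set up as cytosolic heat shock genes also holds Hspe1 and Hspd1, which encode mitochondrial chaperones. The listed genes, which respond to stress and handling, were lower in DKO in 7 of 9, against 50.7% of all probe sets. Their median was -0.11, with 0 passing in either fit. At an unadjusted p under 0.05 there were 0 without and 1 with the block (5.62% and 16.2% of all probe sets). Hspa1a, the inducible HSP70, which has a near-identical copy in Hspa1b, so that its signal is uncertain, read 10.04, 10.07 and 10.13 in DKO and 11.24, 10.16 and 10.01 in ApoE-KO, so that ApoE-KO replicate 1 stood above the other 5 arrays. Hspb1 (-0.38), Hspa8 (-0.09) and Hsph1 (-0.23) overlapped as well. Hsph1 was also highest in ApoE-KO replicate 1, whereas Hspb1 and Hspa8 were highest in ApoE-KO replicate 2. Atf3, also a stress gene, had its highest value in ApoE-KO replicate 1. It was the only 1 of the 10 immediate early genes to do so, where 21.1% of all genes were highest there. Egr1 had its lowest value on that array.

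**Figure D5:**
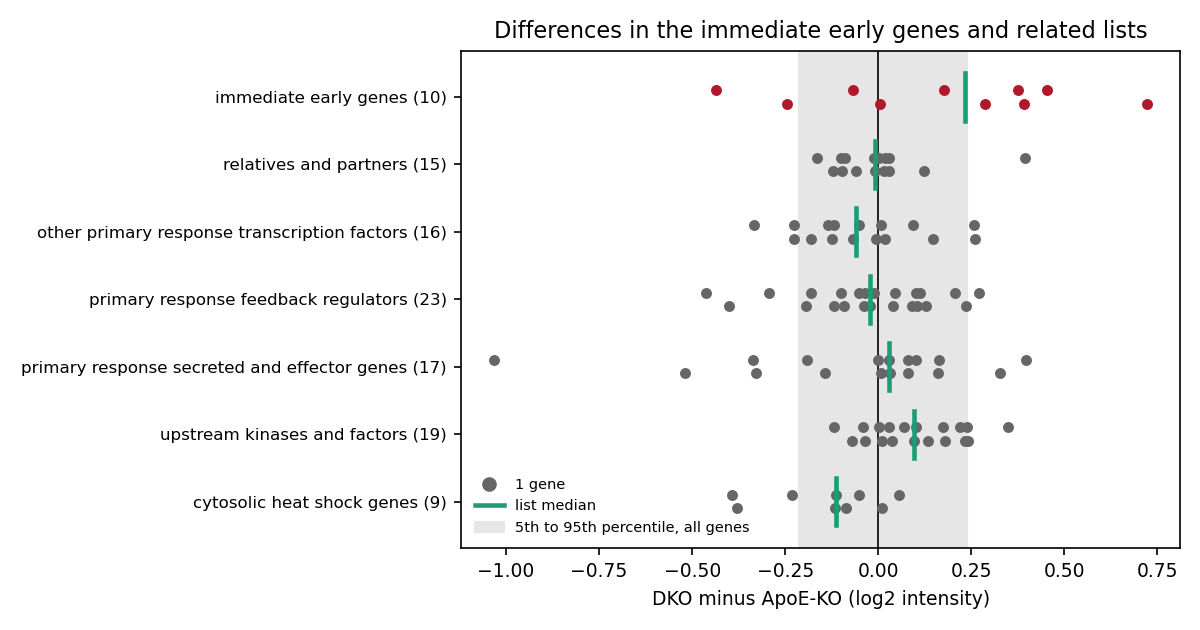
Difference DKO minus ApoE-KO (log2 intensity) of every measured gene in the immediate early list and 6 related lists, with the number of genes in brackets; dots are genes, green bars list medians, and the grey band holds the 5th to 95th percentile of all genes. The immediate early genes spread from -0.44 to 0.72 around a median of 0.23, and the other medians lie between -0.11 and 0.096. By pair, the immediate early median was 0.04, 0.07 and 0.27.

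The mean profile of the 10 genes, each centred on its own mean, was 0.03, 0.21 and 0.0076 in DKO and -0.05, 0.15 and -0.34 in ApoE-KO. The 5 genes closest to it among 17611 candidates, by root mean square distance over the 6 arrays, were Rbbp4, a histone-binding subunit of chromatin complexes (0.0216), Coq5, an enzyme of coenzyme Q synthesis (0.0308), Cerk, the ceramide kinase (0.0351), Amotl1, a junctional protein of the angiomotin family (0.0359), and Mtmr9, a myotubularin-related protein (0.0405). Of the immediate early genes, Egr3 lay closest to the mean profile (0.107) and Nr4a1 farthest (0.388), against a median distance of 0.207 over all genes. Egr3, Jun, Egr1 and Egr2 lay within that median and the other 6 beyond it. Each of the 10 is itself part of the mean profile, which the other genes are not, so these distances are not strictly alike.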

How the data were processed

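Aortic RNA of 3 DKO and 3 ApoE-KO samples was amplified, fragmented and biotin-labelled for whole-transcript arrays, per the labels' protocols. The deposited table holds log2 intensities of 25254 probe sets. RMA, Partek and the build mm9 stand in the submitters' processing notes; versions, and whether the deposited values had a batch term removed, are not stated there. The design text names microarray batch as a factor without saying which array belongs to which. The platform annotation names 1 gene for 21496 probe sets, several for 1565 and none for 2193, and genes were named only through the first kind.

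All probe sets were fitted with limma 3.58.1 in R 4.3.3 (lmFit, eBayes with intensity trend), DKO minus ApoE-KO, two-sided, with Benjamini-Hochberg adjustment over all of them, a threshold of 0.05 and no filter. Intervals are 95% intervals of the fit without a block. The fit was tested on simulated data. Deviations from the group mean correlated at 0.6, 0.498 and 0.636 between arrays of the same replicate number, and on that evidence the numbers were taken as pairs, although the labels do not tell what a number stands for. Alternatives were the replicate block, renewed quantile normalization, median centring, a filter at the 40th percentile, eBayes without trend, array weights, probe sets naming 1 gene, and arrays or pairs left out. The number of arrays limits the precision. The smallest two-sided p an exact permutation test could reach with these groups is 0.1.

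The 10 genes and the lists were chosen with earlier results of these data known. All 10 are described. From each related list the 4 genes with the smallest unadjusted p are named, and 5 genes by nearest profile, leaving out predicted and olfactory receptor genes. Marker levels are log2 of summed linear intensities.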

Additional observations from a re-analysis of the deposited data

How the results depend on the processing

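No immediate early gene passed in the unpaired fit or under renewed quantile normalization, median centring, the 40th-percentile filter, eBayes without trend, array weights, probe sets naming 1 gene, the replicate block, or any single array left out. The replicate block moved the count over all probe sets to 44, with 0 immediate early genes and 0 genes of the related lists among them. Of 160 single-gene values under 16 alternatives, 146 kept their direction and their side of the threshold, 10 turned sign and 4 passed. The 4 came with the replicate block without both arrays of replicate 1, where 415 probe sets passed in all and 3 genes of the related lists (Nr4a2, Gem and Prkacb, named after their values were seen), and 48 probe sets passed without both arrays of replicate 3. The cause was not tested. The sign changes were those of Fos and Jun, whose differences were near 0. Fos was at -0.027 after quantile normalization, -0.16 with array weights, and -0.20 and -0.0068 with the block without replicate 1 and without replicate 3. With single arrays left out, Fos ran from -0.14 to 0.27, Jun from -0.23 to 0.0625, the median of the 10 genes from 0.13 to 0.32, and the count of genes without overlap from 4 to 6, where 18.9% to 29% of all probe sets had separate groups. Over all probe sets 0 to 8 passed, the 8 without DKO replicate 3. Of the 4 genes without overlap, Fosb lost that after quantile normalization, which left 3. Every member had 1 probe set, so no other probe set could be tried.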
